A study of Drosophila melanogaster with 6 samples.

Results

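The apoptosis and autophagy genes of *Drosophila* were examined in RNA from dissected adult hindguts that expressed the RasV12 oncogene and from control hindguts. The members were taken by name. They are all genes whose FlyBase symbol starts with Atg and a digit, together with *hid*, *rpr*, *grim*, *skl*, *Diap1*, *Dronc*, *Drice*, *Dcp-1*, *Dark*, *Debcl*, *Buffy*, *p53*, *ref(2)P*, *Vps34* (listed as *Pi3K59F*) and *Mitf*. This gave 35 of the 17617 genes in the files, 20 with an Atg symbol and 15 named singly. The caspase gene *Dredd* was left out by the rule. RasV12 hindguts carried byn-G4, tub-G80ts, U-gfp and U-RasV12, and control hindguts carried the same driver, repressor and GFP without U-RasV12. Both were reared at 18°C and moved to 29°C for 7 days as adults, which lifts the Gal80ts repressor, so the control flies went through the same heat and GFP expression. There were 3 libraries per genotype, each from pooled hindguts. The driver *byn-Gal4* acts in hindgut enterocytes, whereas the dissected tissue also holds visceral muscle. The paper reports bigger enterocytes with more nuclear DNA in RasV12 hindguts. Fewer cells of a type, less RNA per cell and a larger share of RNA from other cells cannot be told apart in such tissue.

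Apoptosis in flies is set off when the RHG proteins (Hid, Reaper, Grim and Sickle) bind the inhibitor of apoptosis Diap1. This frees the initiator caspase Dronc, which assembles on the adaptor Dark and cleaves the effector caspases Drice and Dcp-1. In *Drosophila* tissues Ras/MAPK signalling is known to lower *hid* expression and to inactivate the Hid protein by phosphorylation. In autophagy a kinase complex around Atg1 starts the process, a lipid kinase complex around Vps34 marks the membrane, Atg9 vesicles and the lipid transfer protein Atg2 feed its growth, and a pair of conjugation systems attach Atg8 to it. Both processes are controlled mostly at the level of proteins, so transcript levels describe the supply of components and not the rate of cell death or of autophagy.

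The libraries read the 3′ ends of transcripts, and the deposited values are read counts multiplied by 1 factor per library and rounded, called normalized read signal here. Library totals were 997131 to 1031380 in RasV12 and 932389 to 1011488 in control hindguts. The recovered factors imply 988982 to 1401449 reads per RasV12 library and 686569 to 1049397 per control library. A count of 3 reads then corresponds to a signal of 2.13 to 4.22, so single-digit values rest on a few reads. No library was a repeat of another, with correlations of log2 values within a genotype from 0.832 to 0.918. The replicates are described as biological, each from its own pool of dissected flies. The hindgut determinant *byn*, whose driver was used, was detected in every library, with 60, 144 and 97 in RasV12 and 299, 283 and 450 in control hindguts. The sum of 5 hindgut epithelium markers was 500 to 611 in RasV12 and 749 to 1020 in control libraries, with 3 of the 5 lower and 1 (*drm*) higher. The summed signal of 9 muscle genes was 1960 to 2323 in RasV12 and 6045 to 7599 in control libraries, and 8 of the 9 were lower with an adjusted p under 0.05. The sum of 6 fat body genes was 2111 to 4134 in RasV12 and 3973 to 10467 in control libraries, with 3 lower. Ovary markers summed to 0 to 7 in RasV12 and 10 to 90 in control libraries, with 1 lower. The sum of 90, in control replicate 3, was mostly *yl* at 58. Malpighian tubule markers summed to 101 to 150 in RasV12 and 96 to 424 in control libraries and trachea markers to 61 to 80 in RasV12 and 33 to 71 in control libraries. In each list 1 gene was higher (*Irk1* and *btl*), but other genes went the other way. *Gasp* of the trachea had 14, 6 and 8 in RasV12 and 32, 32 and 17 in control hindguts. *Alp4* of the tubule had 33, 35 and 32 in RasV12 and 353, 68 and 37 in control hindguts. The other sums were 104 to 202 in RasV12 and 13 to 131 in control libraries for midgut enzymes, 20 to 59 in RasV12 and 21 to 55 in control libraries for neurons, and 81 to 101 in RasV12 and 36 to 83 in control libraries for hemocytes. Of 6 hemocyte markers *NimC1*, *eater* and *He* were listed at 0 in every library. The hemocyte sum was almost all *crq*, with 100, 96 and 79 in RasV12 and 59, 36 and 83 in control hindguts. The midgut sum was almost all *alphaTry*, with 100, 200 and 108 in RasV12 and 125, 82 and 13 in control hindguts. Each of these sums rests on 1 gene and does not measure the amount of that cell type.

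Few of the cell death and autophagy genes differed between the genotypes past the threshold. Of the 35 members, 33 had a value above 0 in some library and 29 exceeded a signal of 9 (the median of all genes with a value) in at least 1 library and were tested. With limma on log2(signal + 1) and Benjamini-Hochberg adjustment over all 7155 genes tested, 2 members were lower in RasV12 hindguts, *Atg9* and *Mitf*, and 0 were higher. Across all genes 7.7% were lower and 9.04% higher, so the 2 lower members (6.90%) lie near the share of all genes. Limma-voom also called 0 members higher. At an unadjusted p under 0.05 there were 2 higher (*Dronc* and *Atg5*) and 5 lower (*Atg9*, *Mitf*, *Atg8a*, *hid* and *Atg101*), in all 7 members against 30.1% of all genes.

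With the thresholds of the study, an unadjusted p under 0.05 and a log2 change above 1, *Dronc* and *Atg5* were higher and *Atg9*, *Mitf* and *hid* lower. All genes passed these thresholds at 12.2% higher and 9.99% lower. The RasV12 libraries lay above the control libraries without overlap in 3 members (*Dronc*, *Debcl* and *Atg4a*) and below them in 3 (*Atg8a*, *Atg9* and *Mitf*), against 17.7% and 15.3% of all genes. The median log2 difference was −0.14 over the tested members and 0.018 over all genes, and the median size of the difference was 0.56 and 0.63. In 22 of the 29 tested members the difference was smaller than 1 on the log2 scale, as it was in 70.2% of all genes.

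These data do not show that the members were equal in both genotypes. The 95% interval of the difference stayed within −1 and 1 for only 4 members (*Diap1*, *Atg18a*, *Atg4b* and *Vps34*) and reached a doubling or halving for the other 25. The filter also let in 5 members through 1 genotype only, *hid*, *Dcp-1* and *Atg16* through control and *Dronc* and *Atg5* through RasV12 libraries. In these 5 a difference was favoured by the filter itself, and their number is no measure of the group.

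**Figure D1:**
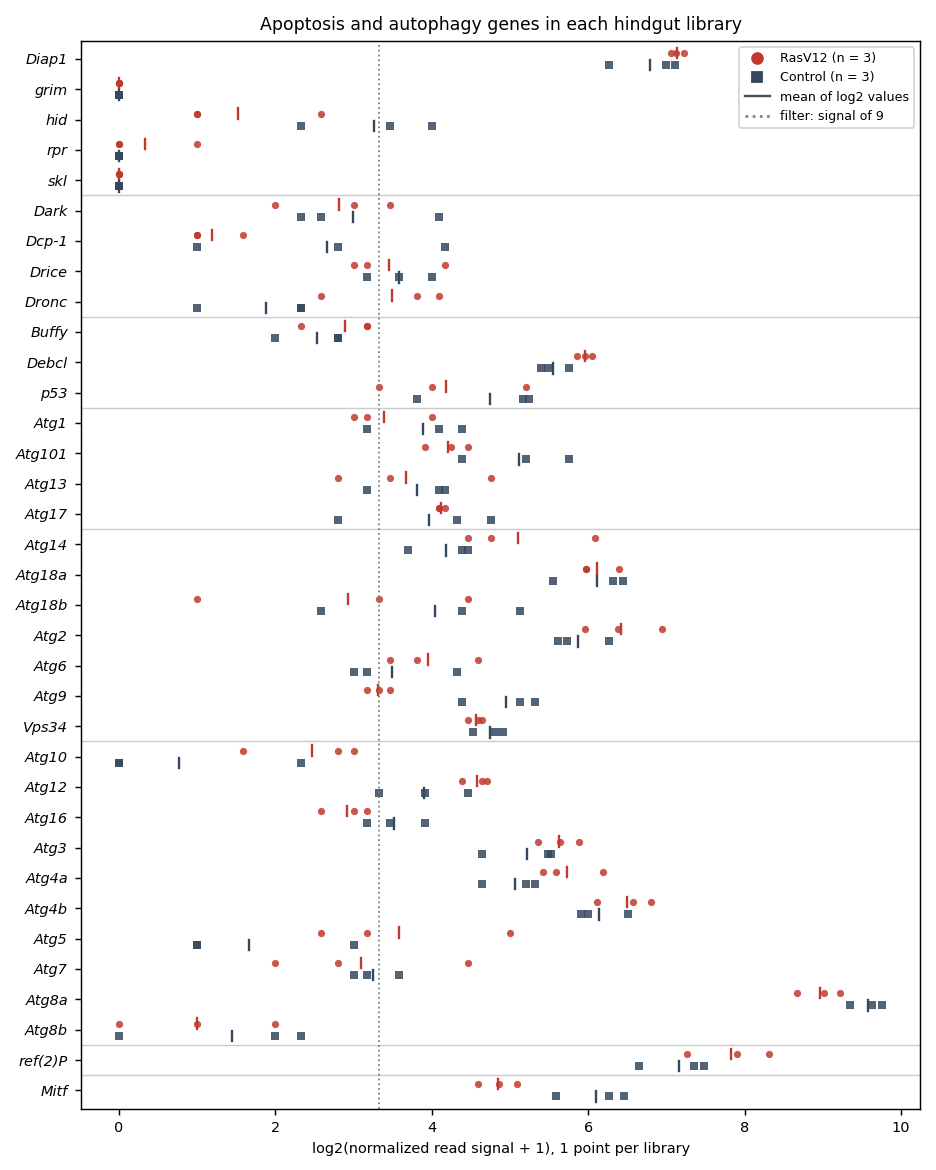
Normalized read signal of all 35 members, plotted as log2(signal + 1) with 1 point per library (circles RasV12, squares control, ticks the mean of log2 values, grey lines between roles). The RHG genes lie left of the dotted line at a signal of 9, except *hid* in control replicates 2 and 3 at 10 and 15, whereas *Atg8a* lies furthest right, from 407 to 593 in RasV12 and from 649 to 865 in control libraries.

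The RHG genes were near or at the limit of detection in both genotypes. They lie close together on chromosome 3L, *hid* (FBgn0003997) from 18167745 to 18185641, *grim* from 18302719 to 18304417, *rpr* from 18397535 to 18398435 and *skl* from 18438561 to 18439942 (coordinates of dm6, from the Ensembl annotation). *grim* and *skl* had 0 reads in all 6 libraries, and *rpr* had 0, 0 and 1 in RasV12 and 0 in every control library. For a single library with 0 reads, counting error alone allows an expected count of up to 3 reads. With 0 in all 6 libraries the expected count per library must be lower than that. At this depth a difference between such low levels was not detectable in these 3 genes.

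*hid* had a signal of 1, 5 and 1 in RasV12 hindguts and 4, 10 and 15 in control hindguts. RasV12 replicate 2 overlapped control replicate 1, and no library held more than about 11.3 reads of the gene. Its log2 difference was −1.73 (95% interval −3.41 to −0.059, limma's adjusted p = 0.152), which did not pass 0.05. *Diap1* (FBgn0260635), whose protein blocks Dronc and the effector caspases, was well covered, with 132, 138 and 148 in RasV12 and 76, 137 and 127 in control hindguts. Only control replicate 1 stood below the rest, and the log2 difference was 0.34 (interval −0.26 to 0.93, limma's adjusted p = 0.447).

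Among the members, *Dronc* (FBgn0026404) was the only one of the 3 caspase genes and *Dark* without overlap between genotypes. Its signal was 13, 16 and 5 in RasV12 hindguts and 4, 4 and 1 in control hindguts. All 3 RasV12 libraries were higher, but RasV12 replicate 3 was 1 unit above the highest control, and the log2 difference of 1.61 (interval 0.11 to 3.12) had an adjusted p of 0.139 with limma. *Dark*, which forms the apoptosome with Dronc, had 3, 7 and 10 in RasV12 and 4, 5 and 16 in control hindguts. Its ranges overlapped, and the log2 difference was −0.18 (interval −1.65 to 1.29). Of the effector caspases, *Drice* had 7, 17 and 8 in RasV12 and 8, 11 and 15 in control hindguts (log2 difference −0.14, interval −1.27 to 1.00). *Dcp-1* had 2, 1 and 1 in RasV12 and 6, 17 and 1 in control hindguts (−1.46, interval −3.49 to 0.56). Control replicate 3 of *Dcp-1* was as low as the RasV12 libraries, while control replicate 2 held most of its reads, and its log2 difference was −0.71 without control replicate 2 and −2.29 without control replicate 3.

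The Bcl-2 family of flies has only *Debcl*, which promotes death, and *Buffy*, which mostly protects. *Debcl* (FBgn0029131) had 65, 61 and 57 in RasV12 hindguts, a narrow range that lay above the 53, 41 and 44 of control hindguts. The log2 difference of 0.41 was small (interval −0.22 to 1.03, limma's adjusted p = 0.377). *Buffy* stayed under the filter with 4, 8 and 8 in RasV12 and 6, 6 and 3 in control hindguts. The transcription factor gene *p53*, which acts after DNA damage, had 9, 15 and 36 in RasV12 and 13, 37 and 35 in control hindguts, so that each genotype held a low and a high library. Its log2 difference was −0.56 (interval −1.73 to 0.60, limma's adjusted p = 0.520), and with 1 library left out it ranged from −1.08 without RasV12 replicate 3 to −0.14 without RasV12 replicate 1.

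**Figure D2:**
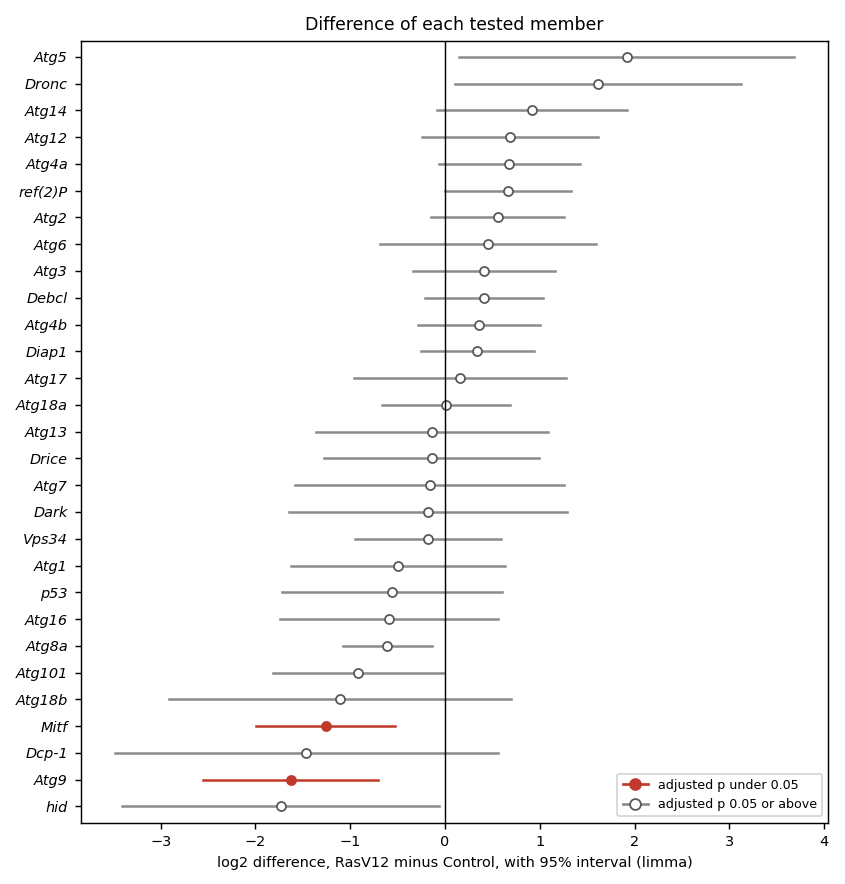
Log2 difference (RasV12 minus control) of the 29 tested members with its 95% interval from limma, filled red where the adjusted p was under 0.05. Only *Atg9* at −1.63 and *Mitf* at −1.26 are filled, and the widest intervals belong to genes with few reads such as *Dcp-1*, *Atg18b* and *Atg5*.

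Of the 20 Atg genes, 18 were tested, 10 with a positive and 8 with a negative log2 difference and a median of 0.081. The kinase complex that starts autophagy gave no call. *Atg101* (FBgn0030960), a subunit that binds Atg13, had 14, 21 and 18 in RasV12 and 53, 36 and 20 in control hindguts. Control replicate 3 fell among the RasV12 libraries, and the log2 difference of −0.91 (interval −1.82 to −0.0081) did not pass (limma's adjusted p = 0.163). It was −1.28 (limma's adjusted p = 0.0545) when control replicate 3 was dropped and −0.60 (limma's adjusted p = 0.410) when control replicate 1 was dropped. The kinase gene *Atg1* had 8, 15 and 7 in RasV12 and 20, 8 and 16 in control hindguts, a log2 difference of −0.49. *Atg13*, with 26, 10 and 6 against 17, 8 and 16 in control, and the scaffold gene *Atg17*, with 16, 16 and 17 against 6, 26 and 19 in control, differed by −0.14 and 0.15.

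*Atg9* (FBgn0034110, 2R, 16294400 to 16297232) encodes the only transmembrane protein of the core machinery, a lipid scramblase that travels in vesicles to the growing membrane. It had a signal of 8, 10 and 9 in RasV12 hindguts and 34, 20 and 39 in control hindguts. All 3 RasV12 libraries lay below every control library, at 9.0 ± 1.0 against 31.0 ± 9.85 (SD, n = 3 each). The log2 difference was −1.63 (standard error 0.43, interval −2.55 to −0.71, limma's adjusted p = 0.0198). Leaving out 1 library kept it between −1.91 and −1.44, but the adjusted p was above 0.05 in 5 of the 6 fits. It was 0.0693 without control replicate 1, 0.0707 without control replicate 3, 0.0648 without RasV12 replicate 1, 0.0616 without RasV12 replicate 2 and 0.0600 without RasV12 replicate 3. The muscle, hindgut epithelium and ovary marker sums were each lower in the same libraries, without overlap. The lists were not uniform, since *drm* of the epithelium was higher, and of 7 ovary markers 3 were tested and 1 was lower. The part of these tissues in the lower *Atg9* was not tested.

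Apart from *Atg9*, the genes that act on the membrane were not called. The lipid transfer gene *Atg2* had 82, 61 and 122 in RasV12 and 48, 76 and 52 in control hindguts (log2 difference 0.55, interval −0.15 to 1.25). *Vps34* (FBgn0015277), the lipid kinase itself, was among the steadiest members, with 21, 23 and 24 in RasV12 and 22, 27 and 29 in control hindguts. Its difference was −0.18 (interval −0.95 to 0.59), and its 3′ end shares the strand with an exon of *CG30184*. Of its partners, *Atg6* (the fly Beclin) had 23, 10 and 13 in RasV12 and 8, 19 and 7 in control hindguts. *Atg14*, which directs Vps34 to autophagy, had 21, 26 and 67 in RasV12 and 21, 12 and 20 in control hindguts. The log2 difference of *Atg14* was 0.92 (interval −0.084 to 1.92, limma's adjusted p = 0.206) and became 0.42 without RasV12 replicate 3.

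The Atg18 proteins bind the lipid that Vps34 makes. *Atg18a* had 83, 62 and 62 in RasV12 and 86, 79 and 46 in control hindguts, and its difference of 0.0091 was the smallest of the members. *Atg18b* was uneven in both genotypes, with 21, 9 and 1 in RasV12 and 34, 20 and 5 in control hindguts (log2 difference −1.11, interval −2.91 to 0.70). With 1 library left out, this difference ranged from −1.87 without RasV12 replicate 1 to −0.14 without RasV12 replicate 3.

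In the conjugation systems, *Atg5* (FBgn0029943), the partner of Atg12, had 31, 8 and 5 in RasV12 and 7, 1 and 1 in control hindguts. Control replicate 1 lay inside the RasV12 range and RasV12 replicate 1 far above the rest. The log2 difference of 1.92 (interval 0.15 to 3.69) had an adjusted p of 0.134 with limma and was 1.21 without RasV12 replicate 1. *Atg12* had 20, 25 and 24 in RasV12 and 14, 9 and 21 in control hindguts (0.68, interval −0.24 to 1.61). *Atg16*, the third part of that complex, had 5, 8 and 7 in RasV12 and 10, 14 and 8 in control hindguts (−0.59). The enzyme genes were not called. *Atg7*, the activating enzyme, had 6, 3 and 21 in RasV12 and 11, 7 and 8 in control hindguts, and *Atg10* stayed under the filter with 2, 7 and 6 in RasV12 and 0, 4 and 0 in control hindguts. *Atg3*, which carries Atg8 to the lipid, had 58, 49 and 40 in RasV12 and 45, 44 and 24 in control hindguts (log2 difference 0.41, interval −0.34 to 1.16).

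Both Atg4 proteases, which trim Atg8 and release it from membrane, had positive log2 differences that did not pass the test. *Atg4a* (FBgn0031298) had 42, 72 and 47 in RasV12 hindguts, all above the 39, 36 and 24 of control hindguts, with a log2 difference of 0.68 (interval −0.069 to 1.42, limma's adjusted p = 0.211). *Atg4b* had 68, 111 and 94 in RasV12 and 59, 63 and 90 in control hindguts (0.36, interval −0.28 to 1.00).

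*Atg8a* (FBgn0052672, X, 10764878 to 10768338) encodes the ubiquitin-like protein that coats autophagosomes. It had the highest signal of the members, and 97.5% of genes with a value had a lower mean over the 6 libraries. Its signal was 593, 517 and 407 in RasV12 and 793, 865 and 649 in control hindguts, 506 ± 93.5 against 769 ± 110 (SD, n = 3 each), without overlap. The log2 difference was −0.61 (standard error 0.22, interval −1.08 to −0.14) and its limma adjusted p of 0.0723 missed 0.05. The adjusted p was 0.0479 without control replicate 3 and 0.0400 with upper-quartile factors, and otherwise lay above 0.05 in the fits tried, up to 0.242. Its paralogue *Atg8b* was barely detected, with 0, 3 and 1 in RasV12 and 3, 4 and 0 in control hindguts.

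*ref(2)P* (FBgn0003231) encodes the fly p62, a receptor that brings ubiquitinated cargo to Atg8 and is itself degraded by autophagy. It had 238, 152 and 316 in RasV12 and 177, 163 and 99 in control hindguts. RasV12 replicate 2 lay below control replicates 1 and 2, while the other RasV12 libraries were the highest of all. The log2 difference of 0.66 (interval −0.0043 to 1.33) had an adjusted p of 0.169 with limma, and was 0.41 without control replicate 3 and 0.42 without RasV12 replicate 3. The 3′ end of the gene also lies opposite an exon of *CG10337*.

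*Mitf* (FBgn0263112, chromosome 4, 1198852 to 1224467) encodes the fly counterpart of mammalian TFEB, a transcription factor that switches on lysosomal and autophagy genes. Its signal was 33, 23 and 28 in RasV12 hindguts and 76, 47 and 87 in control hindguts. The highest RasV12 library was below the lowest control library, with means of 28.0 ± 5.00 and 70.0 ± 20.7 (SD, n = 3 each). The log2 difference was −1.26 (standard error 0.34, interval −1.99 to −0.53, limma's adjusted p = 0.0224). With 1 library left out it lay between −1.52 and −1.08, and the adjusted p was 0.0755 without control replicate 1, 0.0674 without control replicate 3, 0.0961 without RasV12 replicate 2 and 0.0645 without RasV12 replicate 3. Without a variance trend it was 0.0643. The lower muscle, hindgut epithelium and ovary sums of the RasV12 libraries stand beside this difference too, with the limits given for *Atg9*. Their part in it was not tested.

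**Figure D3:**
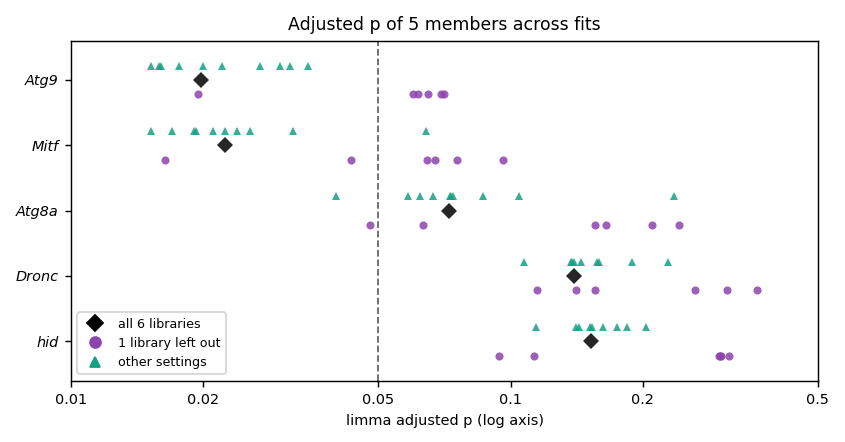
Limma adjusted p on a log axis for 5 members in the fit of all 6 libraries (diamonds), with 1 library left out (circles) and under the other settings (triangles), with the dashed line at 0.05. *Atg9* and *Mitf* cross the line to the right in 5 and 4 of the 6 fits with a library left out, *Atg8a* crosses to the left once among them, and *Dronc* and *hid* stay to the right throughout.

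Reads of overlapping genes could add to some members, since the strand used in counting is not given in the sources used here. In the 500 bases before an annotated transcript end, 2 members (*grim* and *Vps34*) share the strand with an exon of another gene, and 7 (*Dark*, *Atg14*, *Atg10*, *Atg12*, *Atg4a*, *Atg4b* and *ref(2)P*) have one on the opposite strand. *Atg9*, *Mitf*, *Atg8a*, *Dronc* and *hid* have none.

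Neighbouring genes of the same pathways were listed from textbook knowledge, and 103 of them are in the files in 11 lists, of which 87 were tested. Among these, 8 were higher and 8 lower with a limma adjusted p under 0.05, again near the shares of all genes (9.04% higher and 7.7% lower). The same shares stand beside the count of each list, and no list was tested as a set. Of 5 further caspases and caspase adaptors, 2 were higher, against 9.04% of all genes, and both are caspases. *Damm* had 41, 45 and 49 in RasV12 and 17, 8 and 4 in control hindguts, a log2 difference of 2.30 (standard error 0.48, limma's adjusted p = 0.00487) that passed in each fit with a library left out. *Strica* had 14, 15 and 7 in RasV12 and 0, 5 and 0 in control hindguts (log2 difference 2.77, limma's adjusted p = 0.0424). It passed the filter through RasV12 libraries only, so a difference was favoured by the filter, and its place in the count is no support for a direction. Its call was lost in 5 of those 6 fits, with an adjusted p of 0.105 without control replicate 1, 0.0706 without control replicate 3, 0.151 without RasV12 replicate 1, 0.153 without RasV12 replicate 2 and 0.0802 without RasV12 replicate 3, and limma-voom gave 0.0897. *Dredd*, the initiator caspase of the Imd pathway, had 47, 28 and 56 in RasV12 and 67, 56 and 27 in control hindguts and did not pass.

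Of 5 further inhibitors of apoptosis and ubiquitin factors, 4 were tested and 1 was lower. *Bruce*, a giant inhibitor protein with ubiquitin-conjugating activity, had 50, 33 and 29 in RasV12 and 74, 87 and 75 in control hindguts. Its log2 difference of −1.09 (limma's adjusted p = 0.0286) lost the call without control replicate 1 (0.0614), control replicate 2 (0.0931), RasV12 replicate 2 (0.104) or RasV12 replicate 3 (0.106), and without a variance trend (0.0762). Among mitochondrial factors linked to cell death, 3 of 7 tested were lower, against 7.7% of all genes. *Cyt-c-p*, the cytochrome c of the respiratory chain, had 258, 152 and 169 in RasV12 and 690, 677 and 606 in control hindguts (log2 difference −1.80, limma's adjusted p = 0.000201). *Marf*, the mitofusin that joins mitochondria, fell by 1.59 on the log2 scale (limma's adjusted p = 0.000689). *AIF*, a mitochondrial oxidoreductase that can enter the nucleus in dying cells, differed by −1.79 (limma's adjusted p = 0.00598), and all 3 passed in each fit with a library left out. These are also genes of mitochondria-rich cells such as muscle. The muscle, hindgut epithelium and ovary marker sums were lower in the same libraries, with the limits given for *Atg9*, and their part was not tested.

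Of 13 autophagy factors in the files without an Atg symbol, 12 were tested and 1 was lower. This was *Tango5*, the fly VMP1 of the endoplasmic reticulum, with 48, 42 and 29 in RasV12 and 82, 124 and 123 in control hindguts (log2 difference −1.45, limma's adjusted p = 0.00607, at most 0.0330 with a library left out). None of the 5 mitophagy genes tested (*Pink1*, *park*, *BNIP3*, *Miro* and *Usp30*) passed with limma or limma-voom, and 0 of them had an unadjusted p under 0.05.

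Lysosomal genes, among which are targets of the TFEB family in mammals, moved in both directions. Of 22 listed, 18 were tested, 4 were higher and 1 was lower, with a median log2 difference of 0.28. Of all genes 9.04% were higher and 7.7% lower. *Npc2a*, a sterol-binding protein, had 384, 533 and 535 in RasV12 and 183, 195 and 155 in control hindguts (log2 difference 1.43, limma's adjusted p = 0.000801). The cathepsin gene *CtsB* had 995, 843 and 907 in RasV12 and 512, 556 and 340 in control hindguts (0.99, limma's adjusted p = 0.00871, but 0.0928 without a variance trend). *CtsF* differed by 0.85 (limma's adjusted p = 0.0157), and lost the call without control replicate 1 (0.0552), control replicate 2 (0.0554), RasV12 replicate 1 (0.0597) or RasV12 replicate 3 (0.0528), and without a variance trend (0.110). *Cln3*, a membrane protein of the lysosome, had 13, 22 and 32 in RasV12 and 82, 108 and 90 in control hindguts (−2.09, limma's adjusted p = 0.00140). The remaining gene past the threshold, *cathD*, had a log2 difference of 0.83 (limma's adjusted p = 0.0414). It passed without control replicate 3, but not without control replicate 1 (0.0649), control replicate 2 (0.142), RasV12 replicate 1 (0.0902), RasV12 replicate 2 (0.0601) or RasV12 replicate 3 (0.170). The call was also lost with no filter (limma's adjusted p = 0.0550), equal totals (0.0530) and upper-quartile factors (0.0673). Without a variance trend the adjusted p was 0.145, and limma-voom gave 0.0615.

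**Figure D4:**
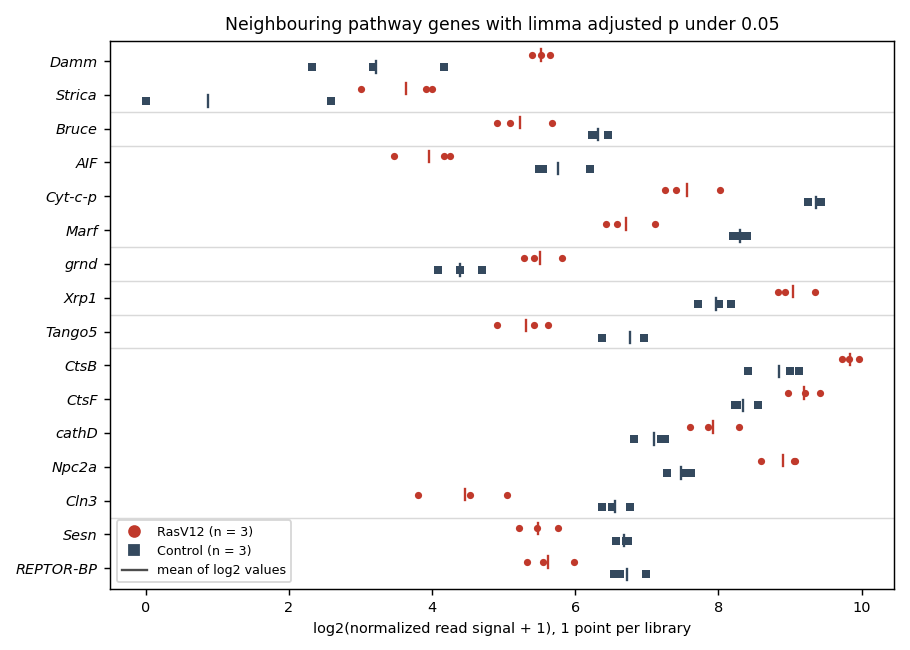
Log2(signal + 1) per library of the 16 neighbouring pathway genes with a limma adjusted p under 0.05 (circles RasV12, squares control, ticks the mean of log2 values, grey lines between lists). In each of the 16 the 3 RasV12 libraries lie on 1 side of the 3 control libraries. The genes were chosen by a test on these same values, which favours such a separation, so it adds no support. Over all genes tested, 17.7% lay above and 15.3% below without overlap. *Strica* has the lowest control values at 0, 5 and 0.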

How the data were processed

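RNA of 3 RasV12 and 3 control pools was read as 3′ ends (QuantSeq kit, Ion Proton). The authors mapped the reads to dm6 with hisat2, passed what was left to bowtie2, and used metaseqR2. The deposited signal of a gene is its read count times the library's factor, rounded to a whole number. Tool versions and the strand of counting are not given in the sources used here. These factors were worked out from the frequencies of the whole numbers in each library. Of 17617 identifiers, 17520 matched a symbol, and all 35 members did. Genes above the median signal of 9 in at least 1 of the 6 libraries, 7155 in all, were tested on log2(signal + 1) in limma 3.58.1 (R 4.3.3) with a trend of variance on level. The p-values are two-sided and Benjamini-Hochberg adjusted. Fold changes on this scale understate those of low genes. With 3 libraries per genotype no exact permutation p can be smaller than 0.1. Alternatives were other pseudocounts, filters, scalings, variance models, a replicate block and each library left out. The members, lists and tests were chosen with earlier results of these data known. The text names all members and, of each list, at most 4 genes with an adjusted p under 0.05 by size of difference. *cathD*, *Dredd*, *egr*, *wgn*, *Traf6*, *Rac2*, *shark*, *DNaseII* and the mitophagy genes were named after their values were seen. The procedure was also run on simulated data, where the changed genes had a mean signal above 9 and larger differences than most members. That run does not measure the power for low members or small differences.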

Additional observations from a re-analysis of the deposited data

How the results depend on the processing

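The number of members higher in RasV12 hindguts was 0 under all 16 alternatives. The number lower was 2, was 1 without a variance trend and 3 with upper-quartile factors (*Atg8a* in addition), and ranged from 0 to 2 with 1 library left out. Over all genes, 647 were higher and 551 lower, against 427 and 277 without a variance trend, and from 334 to 629 and from 270 to 528 with 1 library left out. Of the 457 member values under the alternatives, 430 kept their direction and side of the threshold, 10 lost and 2 gained a call, and 15 in 6 genes that were never called turned direction. *Atg18a* (0.0091) was −0.0528 with equal totals, −0.0798 with upper-quartile factors and −0.0494 with limma-voom. With 1 library left out, the log2 difference ranged from −0.27 to 0.18 for *Atg18a*, −0.42 to 0.55 for *Atg17*, −0.68 to 0.30 for *Atg13*, −0.50 to 0.085 for *Drice*, −0.52 to 0.37 for *Dark* and −0.85 to 0.38 for *Atg7*. The cause was not tested.

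Libraries with the same replicate number did not deviate together over the tested genes (correlations of their deviations −0.0464, 0.00408 and −0.0122). With so few libraries per genotype, these correlations cannot decide whether the numbers pair the samples. With the replicate block 0 members were higher and 2 lower, and 578 genes were higher and 480 lower. The depth limits what can be said of *hid*, *rpr*, *grim*, *skl*, *Dcp-1*, *Dronc*, *Dark*, *Buffy*, *Atg5*, *Atg7*, *Atg16*, *Atg8b* and *Atg10*, whose signal was in single digits in most libraries.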

Other observations

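Among the listed genes of TNF signalling, 4 of 5 were tested and 1 was higher. *grnd*, a receptor of the TNF ligand Eiger, had 38, 42 and 55 in RasV12 and 25, 20 and 16 in control hindguts, a log2 difference of 1.11 (limma's adjusted p = 0.0458). The adjusted p lay above 0.05 in all 6 fits with a library left out, from 0.0519 without control replicate 1 to 0.18 without RasV12 replicate 3, and from 0.0595 to 0.0733 under 6 of the 10 other settings. The ligand gene *egr* had 11, 9 and 2 in RasV12 and 1, 2 and 1 in control hindguts and did not pass (log2 difference 1.64, limma's adjusted p = 0.213). The other receptor gene, *wgn*, went the other way, with 5, 7 and 23 in RasV12 and 20, 24 and 13 in control hindguts. It did not pass either (log2 difference −0.89, limma's adjusted p = 0.309). *Traf6* had 14, 19 and 17 in RasV12 and 14, 17 and 19 in control hindguts. Of 8 genes of the p53 and DNA damage response, 7 were tested and 1 was higher. This was *Xrp1*, a stress-induced transcription factor known from cell competition, with 485, 651 and 456 in RasV12 and 208, 287 and 257 in control hindguts (log2 difference 1.07, limma's adjusted p = 0.00588, but 0.0505 without RasV12 replicate 2 and 0.0705 without a variance trend).

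The TORC1 list held parts of the kinase complex itself (*Tor*, *raptor* and *Lst8*), genes that sense nutrients upstream and genes that act downstream. Of 16 tested, 2 were lower, against 7.7% of all genes. *Sesn*, the fly sestrin that restrains TORC1, had 43, 36 and 53 in RasV12 and 104, 94 and 106 in control hindguts (log2 difference −1.20, limma's adjusted p = 0.0105, 0.0575 without RasV12 replicate 2). *REPTOR-BP*, partner of a transcription factor that TORC1 keeps inactive, had 46, 62 and 39 in RasV12 and 98, 126 and 92 in control hindguts (−1.10, limma's adjusted p = 0.0209). Its adjusted p was 0.0836 without control replicate 2, 0.0643 without RasV12 replicate 1, 0.0814 without RasV12 replicate 3 and 0.0724 without a variance trend. None of the 8 tested genes for the engulfment of dead cells passed with limma or limma-voom. An unadjusted limma p under 0.05 was found for 2 of the 8 (*Rac2* and *shark*, both with a positive log2 difference), against 30.1% of all genes. Of 5 genes of the Drep nuclease family and *DNaseII*, only *DNaseII* reached the filter, with 2, 5 and 7 in RasV12 and 11, 4 and 36 in control hindguts, and it did not pass (limma's adjusted p = 0.256).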
